A study of Homo sapiens with 6 samples.

Results

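The 10 genes described here, LAP3, PDS5A, SCARB2, ANXA3, CLGN, TBC1D9, INPP4B, NPY1R, PALLD and PDLIM3, all lie on chromosome 4 and were set apart because their expression was lower in LCCTam than in SUM44. They are 10 of the 11963 genes measured and 10 of the 453 measured genes of chromosome 4. Every probe set whose platform annotation names only that gene was used, which gave 19 probe sets, and the genes are taken in their order along the chromosome. Since the genes were chosen on the contrast of the lines, their own differences are given as a description, with no test. LCCTam is a tamoxifen-resistant variant of SUM44, sampled at passages 8, 9 and 10 and cultured in medium with 500 nM 4-hydroxytamoxifen, the active metabolite of tamoxifen. SUM44, derived from invasive lobular carcinoma of the breast, is positive for the estrogen and progesterone receptors and was sampled at passages 74, 75 and 76 in the same base medium without the drug. Total RNA of each of the 3 LCCTam and 3 SUM44 cultures was hybridized to its own Affymetrix array, and the deposited values are log2 expression. The study used the pair as a model of tamoxifen resistance in lobular cancer and asked about ESRRG, which encodes the orphan receptor ERRγ. LCCTam is 1 variant line, so the resistant state, the presence of the drug and everything else acquired by that line cannot be told apart. Replicates are successive passages of a line, and no label calls them separate cultures, so errors and p-values cover only the spread among these 6 arrays.

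Several of these genes are known from luminal breast cancer, the class that expresses estrogen receptor alpha and simple-epithelial keratins. NPY1R, TBC1D9 and INPP4B are commonly high in estrogen receptor positive tumours, NPY1R is induced by estrogen in breast cancer lines, and loss of INPP4B is known from basal-like tumours. The others are better known from elsewhere: PDLIM3 from the muscle Z-disc, PALLD from the actin cytoskeleton, CLGN from the mouse testis, and LAP3 from interferon-treated cells.

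Sequence at the transcription start is shown for 3 of the genes, chosen as the gene with the largest difference, the gene with the next largest, and the gene whose window holds an AP-1 motif. RefSeq's GRCh38.p14 promoter table held 16 windows for 9 of the 10 genes, each from 250 bases before a start to 50 after it, and no window for TBC1D9. Capitals mark a match, on either strand, to a motif searched for, and a window without capitals held none. The INPP4B window is at chr4:142305895-142306194, minus strand, with 30% GC. It is 1 of 6 windows for this gene and the only 1 of them that held AGGTCA. The INPP4B window at chr4:142846252-142846551, with 68.7% GC, held no match and is not shown. The NPY1R window is at chr4:163332547-163332846, minus strand. The PALLD window is at chr4:168831845-168832144, plus strand, 1 of 3 windows.
INPP4B: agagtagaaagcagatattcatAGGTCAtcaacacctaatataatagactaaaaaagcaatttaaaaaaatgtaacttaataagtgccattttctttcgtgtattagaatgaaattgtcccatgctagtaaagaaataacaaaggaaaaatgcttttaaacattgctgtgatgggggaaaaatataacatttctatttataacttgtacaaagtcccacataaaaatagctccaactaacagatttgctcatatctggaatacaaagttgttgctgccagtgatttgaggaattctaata
NPY1R: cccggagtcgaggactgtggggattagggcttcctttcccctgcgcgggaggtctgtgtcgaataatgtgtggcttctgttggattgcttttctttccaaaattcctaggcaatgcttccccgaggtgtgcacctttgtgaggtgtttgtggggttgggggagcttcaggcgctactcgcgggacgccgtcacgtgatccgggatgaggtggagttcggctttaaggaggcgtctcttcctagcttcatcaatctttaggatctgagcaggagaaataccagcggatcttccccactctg
PALLD: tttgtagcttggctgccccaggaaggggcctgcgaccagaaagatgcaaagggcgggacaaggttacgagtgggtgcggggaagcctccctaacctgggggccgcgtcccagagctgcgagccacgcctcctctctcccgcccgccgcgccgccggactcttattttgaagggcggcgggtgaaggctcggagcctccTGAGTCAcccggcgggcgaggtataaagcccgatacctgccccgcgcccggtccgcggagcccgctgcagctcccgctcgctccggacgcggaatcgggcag
The palindromic estrogen response element was in 0 of the 16 windows and in 0.0570% of all 35116 windows of the table. The element of the estrogen-related receptors, TCAAGGTCA, was in 0 of 16 and in 0.353% of all windows. The shorter site AGGTCA, which overlaps that element, was in 1 of 16, the INPP4B window shown, and in 13.8% of all. The forkhead motif TGTTTAC was in 0 of 16 and in 3.42% of all. The GATA motif AGATAA was in 3 of 16 (PDS5A, INPP4B and PDLIM3, 1 each) and in 10.3% of all. The AP-1 motif TGANTCA was in 1 of 16, the PALLD window shown, and in 7.71% of all. These are matches of letters in short windows and say nothing of binding.

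The arrays were alike in their medians, between 5.92 and 5.97, while LCCTam replicate 3 stood apart in its controls. For beta-actin, its 3' controls exceeded its 5' controls by 1.92, and those of the other 5 arrays by 0.90 to 1.15, and its 75th percentile was 7.50, against 7.68 to 7.78. Results are therefore also given without it, and the part of RNA quality in them was not tested. ESRRG averaged 9.11 ± 0.48 in LCCTam and 7.02 ± 0.08 in SUM44 (SD, n = 3 each; limma adjusted p = 0.00333), and ESR1, which encodes estrogen receptor alpha, 11.08 ± 0.13 in LCCTam and 12.74 ± 0.23 in SUM44 (SD, n = 3 each; limma adjusted p = 0.00124). Both lines carried luminal markers at high values. KRT18 averaged 13.18 ± 0.31 in LCCTam and 13.40 ± 0.07 in SUM44, and GATA3, a luminal transcription factor, 12.57 ± 0.14 in LCCTam and 12.80 ± 0.20 in SUM44 (SD, n = 3 each). Of 18 measured fibroblast, endothelial and leukocyte markers, 0 passed limma's test and 0 had an unadjusted p under 0.05, and their mean levels lay between 3.61 and 6.82.

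NPY1R had the largest difference of the 10. It encodes a G protein-coupled receptor for neuropeptide Y and peptide YY. Its single probe set read 4.78, 4.86 and 5.28 on the 3 LCCTam arrays, against 8.17, 8.06 and 7.79 on the 3 SUM44 arrays. The highest LCCTam value lay 2.51 below the lowest SUM44 value. The means were 4.98 ± 0.27 in LCCTam and 8.01 ± 0.20 in SUM44 (SD, n = 3 each), a difference of -3.03 on the log2 scale, or 8.18-fold lower, the 11th largest decrease of all genes. No detection calls were used, so the LCCTam values do not tell whether NPY1R was still expressed. In RNA of whole cultures, fewer cells with a transcript and less of it per cell cannot be told apart.

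INPP4B encodes a lipid phosphatase that removes the 4-phosphate from a product of PI3 kinase and so limits AKT signalling. Its probe set read 7.44, 7.63 and 7.29 in LCCTam, against 10.13, 9.84 and 9.60 in SUM44. The difference was -2.40, or 5.29-fold lower, and a gap of 1.97 separated the lines. TBC1D9, of a family that mostly inactivates Rab GTPases, read 9.13, 9.34 and 8.91 in LCCTam, against 10.83, 10.83 and 11.00 in SUM44. This was 3.38-fold lower in LCCTam, whose values still lay above 6.45, the median level of all genes. Its dimmer probe set differed by -1.36 and likewise did not overlap between the lines. CLGN, a calnexin-like chaperone of the endoplasmic reticulum, read 4.52, 4.42 and 4.60 in LCCTam, against 6.24, 6.58 and 6.41 in SUM44, or 3.73-fold lower. These 3 genes lie close together. CLGN, TBC1D9 and INPP4B are the 357th, 359th and 362nd of the 453 measured genes, with UCP1 between CLGN and TBC1D9 and with ZNF330 and IL15 between TBC1D9 and INPP4B.

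PALLD and PDLIM3 belong to the actin cytoskeleton and lie toward the far end of the chromosome, the 417th and 445th measured genes. PDLIM3 encodes a PDZ and LIM domain protein that binds alpha-actinin, and its brighter probe set read 6.30, 6.50 and 6.50 in LCCTam, against 8.15, 8.77 and 9.19 in SUM44. The difference was -2.27, or 4.82-fold lower. The SUM44 arrays were spread over more than 1 log2 unit for PDLIM3 (SD 0.52, against 0.11 in LCCTam), so the size of its difference depends on the SUM44 array while the lines remained 1.65 apart. PALLD encodes palladin, an actin-crosslinking scaffold, and its brightest probe set read 8.06, 8.06 and 7.52 in LCCTam, against 9.96, 9.42 and 9.11 in SUM44, or 3.06-fold lower. The second PALLD probe set gave 7.00, 7.00 and 6.43 in LCCTam, against 9.05, 8.66 and 8.06 in SUM44. Both probe sets put the SUM44 arrays in the same order.

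SCARB2 and ANXA3 lie near the middle, the 213th and 219th measured genes. SCARB2 encodes LIMP-2, a lysosomal membrane protein that carries glucocerebrosidase to lysosomes. Its brightest probe set read 6.35, 6.58 and 5.92 in LCCTam, against 8.25, 8.34 and 8.13 in SUM44, or 3.89-fold lower. LCCTam replicate 3 was the lowest array here, and without it the difference was -1.78 in place of -1.96. ANXA3, an annexin that binds phospholipid in the presence of calcium, read 5.77, 5.04 and 5.10 in LCCTam, against 7.47, 6.97 and 6.72 in SUM44, or 3.36-fold lower. It had the narrowest gap between the lines, 0.95.

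LAP3 and PDS5A lie toward the start of the chromosome, the 68th and 103rd measured genes, and had the smallest differences with PALLD. LAP3, a cytosolic leucine aminopeptidase that trims peptides, read 7.91, 7.66 and 7.65 in LCCTam, against 9.06, 9.49 and 9.50 in SUM44, or 3.05-fold lower. PDS5A, a regulator that binds the cohesin ring, read 7.95, 7.91 and 8.29 in LCCTam, against 9.41, 9.83 and 9.54 in SUM44, or 2.91-fold lower. A second PDS5A probe set of like brightness differed by -1.48, against -1.54 for the first.

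**Figure D1:**
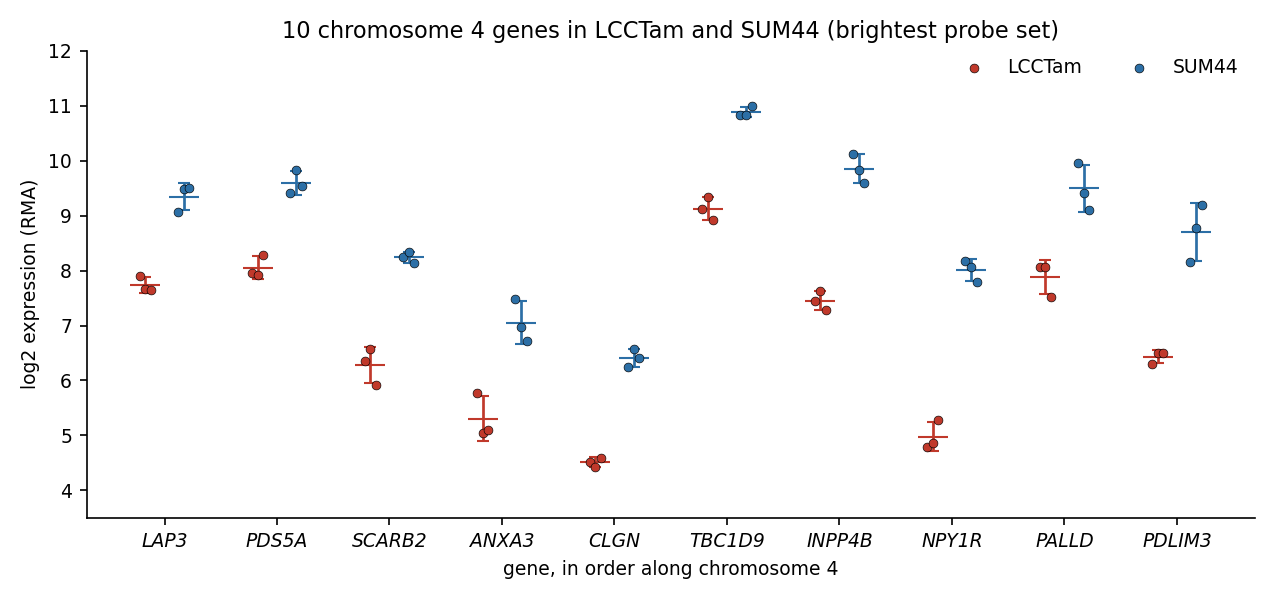
Log2 expression (vertical axis) of the brightest probe set of each of the 10 genes, in order along chromosome 4 (horizontal axis), in LCCTam (red, left) and SUM44 (blue, right). Points are arrays, bars are the mean and SD of 3 arrays, and the narrowest gap between the lines is 0.95, for ANXA3.

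Across the 10 genes the differences lay between -3.03 and -1.54, with a median of -1.83, where the median over all genes was 0.017. Without LCCTam replicate 3 they lay between -3.18 and -1.43, with a median of -1.72. All 3 LCCTam arrays were below all 3 SUM44 arrays for each of the 10 genes, as they were for 16.6% of all genes, where 13.2% lay wholly higher. By limma at an adjusted p of 0.05, 7.92% of all genes passed in either direction. The choice of the genes fixes that count, so nothing is read from it. Of all genes, 82 were lowered at least as much as PDS5A, the least lowered of the 10. On chromosome 4 there are 14 of these, but 10 of them are the chosen genes, so nothing is read from that number. Of the 11963 genes measured, 443 other than the 10 are on chromosome 4. The 4 on chromosome 4 that are not among the 10 are ALB, MFAP3L, TMPRSS11E and DDX60, singled out after their values were seen. ALB differed by -3.72, MFAP3L by -2.03 and DDX60 by -1.84, and TMPRSS11E by -1.89 without passing (limma adjusted p = 0.0892).

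For the 5 genes read by more than 1 probe set, the dimmer probe sets showed smaller differences. Of the 19 probe sets, 19 had a lower mean in LCCTam and 17 did not overlap between the lines, where 16.6% of all named probe sets lay wholly lower in LCCTam. The exceptions were the dimmest probe sets of SCARB2 and PALLD. The SCARB2 one read 5.51, 5.38 and 5.57 in LCCTam, against 5.30, 5.68 and 5.69 in SUM44, a difference of -0.07. The PALLD one differed by -0.40, the dimmer PDLIM3 probe set by -0.36 and the dimmest PDS5A one by -0.29. Apart from the 2 brightest PALLD probe sets, at -1.61 and -1.78, the difference was larger the brighter the probe set of each gene. The PDLIM3 estimate therefore rests on 1 of its 2 probe sets.

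**Figure D2:**
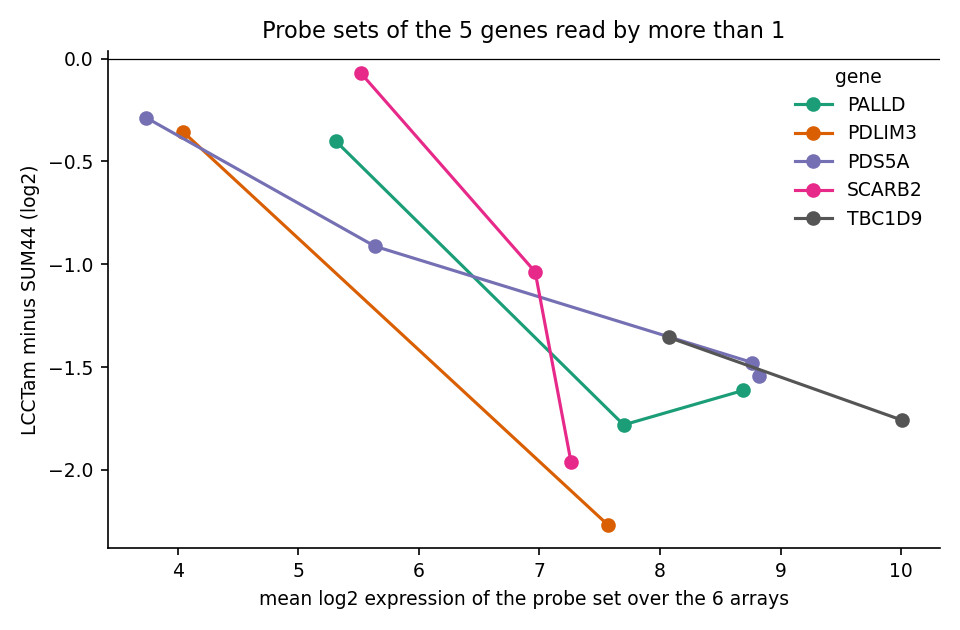
LCCTam minus SUM44 difference (vertical axis, log2) against the mean log2 expression of each probe set over the 6 arrays (horizontal axis) for the 5 genes read by more than 1 probe set, joined by gene. The dimmest probe set of each gene lies nearest to 0, as for SCARB2 at -0.07 and PDS5A at -0.29.

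The other genes of chromosome 4, which the choice of the 10 did not use, were also lower in LCCTam more often than genes elsewhere. The chromosome was itself singled out with these data known, so the counts describe these arrays. Of 443 measured genes other than the 10, 79 fell and 4 rose by limma at an adjusted p of 0.05, or 17.8% and 0.903%. On the other chromosomes 5.31% of 11478 genes fell and 2.14% rose, and over all genes 5.83% fell and 2.09% rose. In numbers 698 of all genes fell and 250 rose, against 574 and 505 with quantile normalization and 1944 and 1900 with array weights. The median difference was -0.09 on chromosome 4 and 0.02 on the other chromosomes. The share lower was the highest of the 23 chromosomes compared (1 to 22 and X). The counts depended on single arrays. Without SUM44 replicate 2, 21 chromosome 4 genes fell (4.74%, against 1.41% elsewhere), without LCCTam replicate 1, 35 (7.90%, against 1.91%), and without LCCTam replicate 2, 38 (8.58%, against 2.28%). Without LCCTam replicate 3, 91 fell (20.5%, against 6.91%). In each of these fits the chromosome 4 share was above that of the other chromosomes.

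The shift was clearer among brighter genes. Genes were split at the median of their mean over the 6 arrays, 6.45, a split chosen after the data were seen. Of the 158 chromosome 4 genes above it, the 10 left out, 59 fell (37.3%) and 135 had a mean below that of SUM44 (85.4%). By limma 0 rose, and 4 rose at an unadjusted p under 0.05. On the other chromosomes 7.71% of the 5814 genes above the median fell, 3.30% rose and 52.3% had a lower mean in LCCTam. The median difference was -0.49 on chromosome 4 and -0.01 elsewhere, and the next lowest chromosomes were 13 at -0.22, 8 at -0.20 and 2 at -0.17. At the other end were chromosomes 16 at 0.16, 22 at 0.11, 19 at 0.11 and 17 at 0.08. The value for elsewhere thus pools chromosomes that differed in both directions, and chromosome 4 was the lowest of a range. Leaving out any 1 array gave medians between -0.52 and -0.45 on chromosome 4, while the number that fell was 14 without SUM44 replicate 2, 24 and 27 without LCCTam replicates 1 and 2, and 36 without SUM44 replicate 3. With all genes cut at equal numbers into 4 groups by level, the dimmest held 180 chromosome 4 genes, whose median difference was 0.006, and 4 fell.

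**Figure D3:**
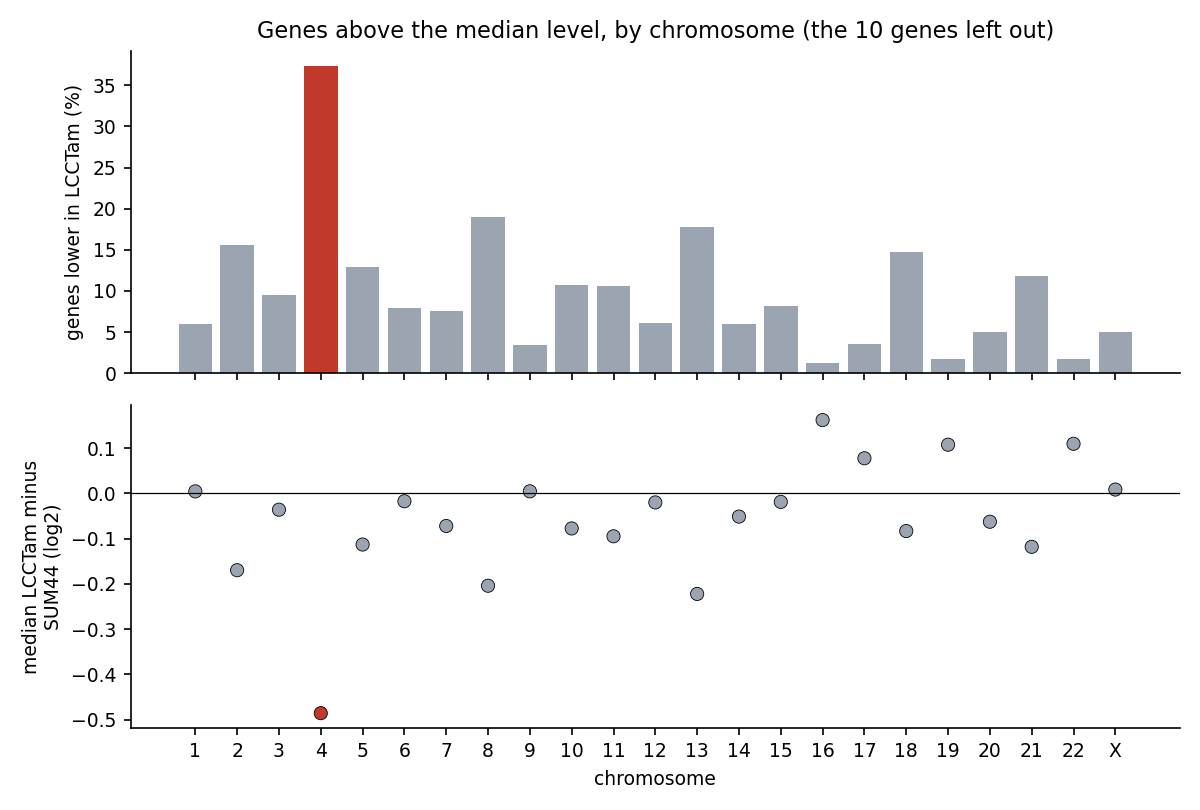
Genes above the median level by chromosome (horizontal axis), with the 10 genes left out. Bars (top) give the percentage that passed as lower in LCCTam and points (bottom) the median LCCTam minus SUM44 difference (log2), and chromosome 4 (red) is at 37.3% and -0.49.

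The difference was present on every array of each line. For the chromosome 4 genes above the median level, the median of the values minus each gene's mean over the 6 arrays was -0.18, -0.18 and -0.24 on the LCCTam arrays, against 0.15, 0.23 and 0.30 on the SUM44 arrays. For the other chromosomes it was 0.05, 0.06 and -0.14 on the LCCTam arrays, against 0.04, -0.01 and 0.004 on the SUM44 arrays. LCCTam replicate 3 was thus low for both sets, and the other LCCTam arrays were low on chromosome 4 and not elsewhere. Base composition was compared for the promoter windows only, which 89.2% of these chromosome 4 genes had. Median promoter GC was 65.3% on chromosome 4 and 65.3% elsewhere. Within 4 groups of genes cut by promoter GC, low to high, the chromosome 4 median was -0.44, -0.52, -0.57 and -0.56, against -0.03, 0.001, 0.001 and -0.02 on the other chromosomes. The third of these groups held only 18 chromosome 4 genes. Promoter windows do not give the base composition of the probed transcripts or of the chromosome, so the part of base composition was not tested.

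**Figure D4:**
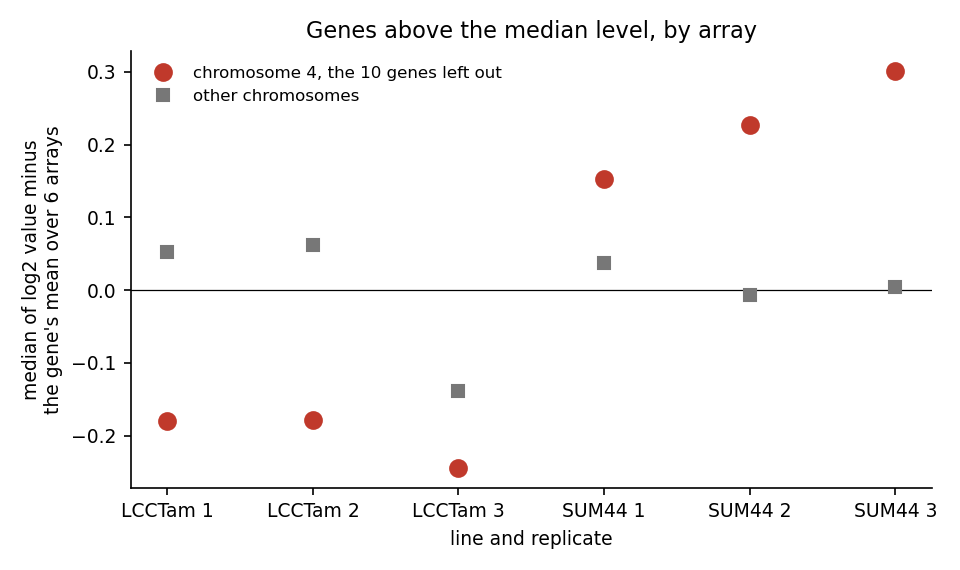
Median over genes above the median level of the log2 value minus the gene's mean over the 6 arrays (vertical axis), for each array (horizontal axis), on chromosome 4 without the 10 genes (red circles) and on the other chromosomes (grey squares). The LCCTam arrays are between -0.24 and -0.18 on chromosome 4 and the SUM44 arrays between 0.15 and 0.30.

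Genes that fell lay in every stretch of the chromosome, with and without members of the 10. The 443 other genes were cut, in order, into 9 consecutive blocks of 49 or 50. The share that fell was highest in the first block, from ZNF141 to AFAP1, where 14 of 50 fell and none of the 10 genes lies. It was lowest in the block from CENPC to BTC, with 4 of 49, of which only 5 genes were above the median level. In the block of LAP3 12 of 49 fell, in that of PDS5A 12 of 49, in that of SCARB2 and ANXA3 5 of 50, in that of CLGN, TBC1D9 and INPP4B 9 of 49, and in that of NPY1R, PALLD and PDLIM3 9 of 49. The median difference of genes above the median level was below 0 in all 9 blocks, between -0.71 in the block of LAP3 and -0.25 in the block from RPL34 to SLC7A11.

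**Figure D5:**
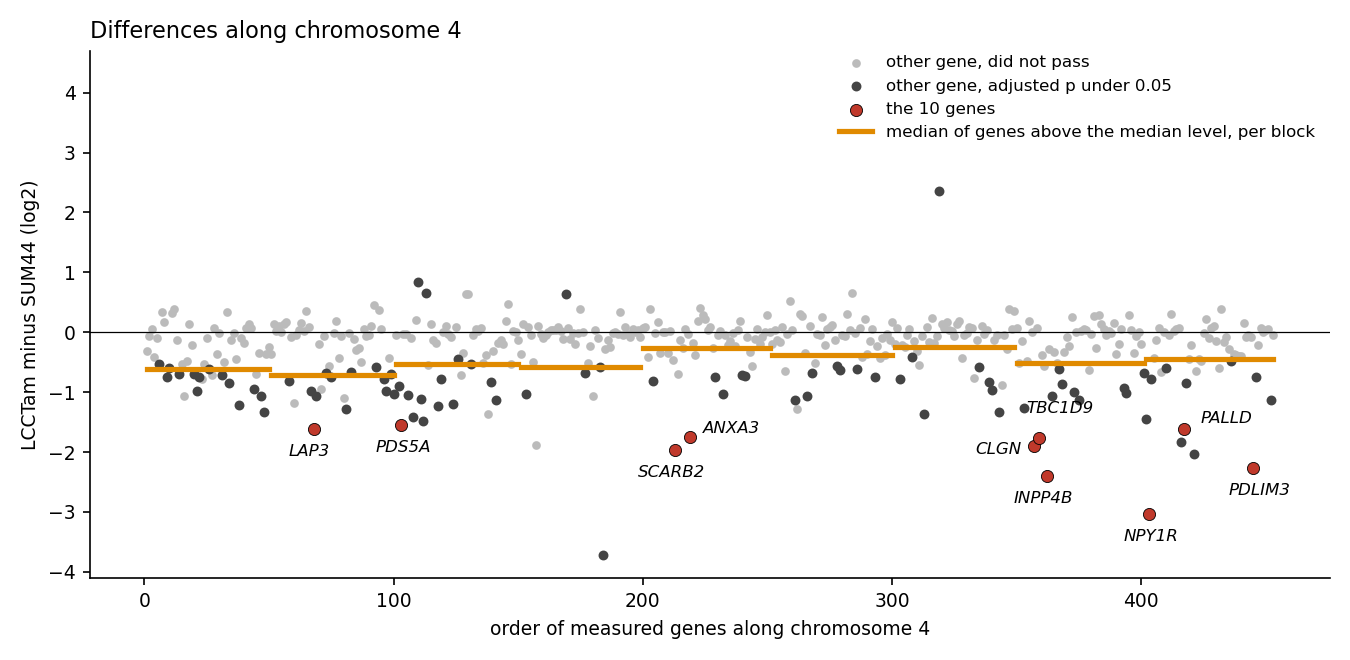
LCCTam minus SUM44 difference (vertical axis, log2) of the 453 measured genes in order along chromosome 4 (horizontal axis). Red points are the 10 genes, dark points other genes past an adjusted p of 0.05, grey points genes that did not pass, and orange lines the median of genes above the median level in each of 9 blocks, all below 0.

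The nearest measured genes give the same picture on a smaller scale. Of the 78 different genes within 5 places of one of the 10 on either side, 18 fell (23.1%) and 0 rose by limma. Over all genes 5.83% fell, and of the 443 chromosome 4 genes other than the 10, these 78 included, 17.8% fell. At an unadjusted p under 0.05, 35 of the 78 were lower and 1 was higher. Their median difference was -0.19. The number that fell was 6 without SUM44 replicate 2, 9 without LCCTam replicate 1 and 10 without LCCTam replicate 2. Around PDS5A 5 of 10 fell, and around SCARB2 and around ANXA3 0 of 10.

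NPY1R lies beside NPY5R, which encodes another neuropeptide Y receptor and is transcribed in the opposite direction. NPY5R read 4.41 ± 0.11 in LCCTam and 5.19 ± 0.11 in SUM44 (SD, n = 3 each), a fall of 1.73-fold (limma adjusted p = 0.00628). On the other side of NPY1R, RAPGEF2, an activator of the GTPase RAP1, averaged 5.41 ± 0.11 in LCCTam and 6.86 ± 0.30 in SUM44 (SD, n = 3 each), a difference of -1.45 (limma adjusted p = 0.00344). Another RAPGEF2 probe set, which stands for the gene when those with the suffixes _x_at and _s_at are left out, differed by 0.05. UBE2K, a ubiquitin-conjugating enzyme next to PDS5A, fell by 0.90 on the log2 scale (limma adjusted p = 0.00381). The genes that touch the CLGN to INPP4B stretch did not pass. ZNF330 differed by -0.37 and IL15, a cytokine, by -0.57, while MAML3 and UCP1, both dim, differed by 0.01 and 0.07, and GAB1, an adaptor of receptor signalling, by -0.27. In all, 8 of the 19 nearest neighbours fell and 0 rose. QDPR and MED28, on either side of LAP3, fell, with differences of -0.98 and -1.07 (limma adjusted p = 0.0475 and 0.0479). Both calls were lost without any 1 of the SUM44 replicates or without LCCTam replicate 2, and that of MED28 also without LCCTam replicate 1. DDX60 and CBR4, on either side of PALLD, differed by -1.84 and -0.85, and SORBS2, beside PDLIM3 and itself an actin-linked adaptor, by -0.75. These 3 calls were lost without SUM44 replicate 2, without LCCTam replicate 1 and without LCCTam replicate 2, and that of SORBS2 also without SUM44 replicate 3. Another SORBS2 probe set, without either suffix, differed by -0.06 and did not pass (limma adjusted p = 0.759). RHOH, NUP54, SEPTIN11, FRAS1, BMP2K and UFSP2, the remaining nearest genes, did not pass and differed by between -0.70 and -0.02.

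Not all chromosome 4 genes were lower in LCCTam. Of the 443 other than the 10, 289 had a lower mean there (65.2%, against 45.6% on the other chromosomes). At an unadjusted p under 0.05 by limma, 149 were lower and 17 higher. NDST4, an enzyme of heparan sulfate synthesis, averaged 7.61 ± 0.09 in LCCTam and 5.25 ± 0.20 in SUM44 (SD, n = 3 each) and rose by 2.35 on the log2 scale (limma adjusted p = 0.000254). LIMCH1, a regulator of non-muscle myosin, rose by 0.84 (limma adjusted p = 0.00779), the phospholipid flippase gene ATP8A1 by 0.66 and the enamel-associated gene ODAM by 0.64. These 4 are all the chromosome 4 genes that rose by limma at an adjusted p of 0.05. NDST4 rose in every fit with an array left out, while LIMCH1 missed the threshold without SUM44 replicate 2 (limma adjusted p = 0.051). ATP8A1 was lost without LCCTam replicate 1, without LCCTam replicate 2 or without SUM44 replicate 3. ODAM was lost without LCCTam replicate 1 or 2 and without SUM44 replicate 1 or 2. The largest falls outside the 10 were in ALB, which encodes albumin, MFAP3L, DDX60, SLC30A9 and RAPGEF2. MFAP3L missed the threshold without SUM44 replicate 2 (limma adjusted p = 0.0545), and with the mean of all probe sets it differed by only -0.57. SLC30A9, a zinc transporter, kept its call with any array left out, at 7.14 ± 0.04 in LCCTam and 8.62 ± 0.09 in SUM44 (SD, n = 3 each; limma adjusted p = 0.000337). ALB averaged 4.12 ± 0.33 in LCCTam and 7.84 ± 0.92 in SUM44 (SD, n = 3 each; limma adjusted p = 0.00408), and another ALB probe set, used when those suffixes are left out, differed by 0.03.

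The relatives of the 10 genes on all chromosomes were then counted, with the 10 left out and beside the 5.83% of all genes that fell. Among 5 measured neuropeptide Y ligands and receptors 1 fell, NPY5R, and the median difference was 0.14. Of these 5, 0 lay above the median level of all genes. Among 31 phosphoinositide phosphatase and PI3K-AKT genes 5 fell and 0 rose, with 9 lower and 1 higher at an unadjusted p under 0.05, and the median was -0.16. PIK3R1, the main regulatory subunit of PI3 kinase, fell by 1.20 on the log2 scale (limma adjusted p = 0.00858), PIK3R3, a sister subunit, by 0.98 and the kinase gene SGK1 by 0.63. PIK3R1 and SGK1 missed the threshold without SUM44 replicate 2 (limma adjusted p = 0.0519 and 0.0564). Among 24 TBC-domain genes 3 fell, RABGAP1L, TBC1D15 and TBC1D19, the last of them also on chromosome 4. All 3 calls were lost without LCCTam replicate 1 and without LCCTam replicate 2, that of TBC1D15 also without SUM44 replicate 2, and that of TBC1D19 without any 1 of the SUM44 replicates. By limma 0 rose, with 2 higher at an unadjusted p under 0.05, and the median was -0.002.

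Cohesin genes had the largest share of falls among these lists, 4 of 14. Of these 14 genes 13 lay above the median level, where 7.71% of genes on chromosomes other than 4 fell. STAG1, a cohesin subunit, averaged 6.61 ± 0.11 in LCCTam and 7.57 ± 0.04 in SUM44 (SD, n = 3 each; limma adjusted p = 0.00213). NIPBL, which loads cohesin, differed by -0.81, WAPL, which releases it, by -0.78, and the fourth was PDS5B, the paralog of PDS5A. The list's median was -0.35, and -0.42 without LCCTam replicate 3. With all 6 arrays 0 rose by limma, and 0 were higher at an unadjusted p under 0.05. Of the 14, 8 had a lower mean in LCCTam. Without LCCTam replicate 3, 6 of the 14 fell and 1 rose. NIPBL and WAPL were lost without SUM44 replicate 2, without LCCTam replicate 1 and without LCCTam replicate 2.

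The lists of the remaining genes held 0 to 2 falls each. Their median differences were 0.08 for the lysosomal, actinin-linked and annexin lists, 0.06 for the calnexin-cycle list and -0.07 for the aminopeptidase list. At an unadjusted p under 0.05, 2 lysosomal genes were lower and 3 higher, and 2 actinin-linked genes lower and 4 higher. Of the calnexin-cycle genes 3 were lower and 1 higher, and of the aminopeptidase genes 5 lower and 2 higher. Of 17 lysosomal membrane and CD36-family genes 1 fell, LAPTM4B, by 2.00 on the log2 scale (limma adjusted p = 0.00106). Of 19 actinin-linked genes 2 fell and 1 rose. PDLIM5, a relative of PDLIM3 that is also on chromosome 4, fell by 1.13 and EPS8, an actin-capping protein, by 0.88, while LASP1, an actin-binding LIM protein, rose by 0.75 (limma adjusted p = 0.00901). PDLIM5 and EPS8 were lost without SUM44 replicate 2, without LCCTam replicate 1 and without LCCTam replicate 2, and PDLIM5 also without SUM44 replicate 3. Of 14 calnexin-cycle genes 2 fell, CANX, which encodes calnexin, and SEL1L, at -0.53 and -0.65, both lost without LCCTam replicate 1 or 2 and without SUM44 replicate 2 or 3, and CANX also without SUM44 replicate 1. Of 10 annexins 0 passed, with 1 lower and 1 higher at an unadjusted p under 0.05, and the largest difference was ANXA1 at -0.93 (limma adjusted p = 0.156). Of 20 aminopeptidase genes 1 fell, TPP2 at -0.70, and 1 rose, RNPEP at 0.60, both lost without LCCTam replicate 1 or 2 and without SUM44 replicate 2, and TPP2 also without SUM44 replicate 3.

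Known luminal genes of other places were counted too, 28 of them measured, the 10 left out. Of these 6 fell and 0 rose by limma (21.4%, where 5.83% of all genes fell). Of the 28, 25 lay above the median level, where 7.71% of genes on chromosomes other than 4 fell. At an unadjusted p under 0.05, 10 of the 28 were lower and 3 higher, and the median was -0.20. Without LCCTam replicate 3, 7 fell, 2 rose and the median was -0.02. SCNN1A, an epithelial sodium channel subunit, fell by 2.87 on the log2 scale, the choline transporter-like gene SLC44A4 differed by -1.85 and ESR1 by -1.65. With the mean of all probe sets SCNN1A differed by only -0.94 and ESR1 by -0.82, and both still passed. The others that fell were TFF1, NAT1 and SLC39A6, while FOXA1 differed by 0.07 and GATA3 by -0.23 without passing. Of 14 basal genes 2 fell, CDH3 and ITGB4, at -1.69 and -0.84. Both of these calls were lost without SUM44 replicate 2 and without LCCTam replicate 1 or 2, that of CDH3 also without SUM44 replicate 1, and another ITGB4 probe set differed by 0.28. Whether the 10 genes are themselves luminal genes was not tested by these counts.

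The genes whose 6 values most resembled the mean profile of the 10 are given as a description, since that profile holds the values used to choose the 10. They lay on other chromosomes, as most genes do: of 11963 measured genes, 443 other than the 10 are on chromosome 4. Likeness was the root mean square distance over the 6 arrays between values centred on each gene's mean. PLAAT4, a retinoid-inducible phospholipase, was nearest at 0.10, then LAPTM4B on chromosome 8 at 0.14, SIGLEC15 on chromosome 18 at 0.15, LGALS3BP on chromosome 17 at 0.16 and IL6ST, the shared receptor of the interleukin-6 family, on chromosome 5 at 0.16. PLAAT4, on chromosome 11, averaged 5.49 ± 0.14 in LCCTam and 7.50 ± 0.06 in SUM44 (SD, n = 3 each). This likeness rests on 6 arrays in 2 groups.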

How the data were processed

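Total RNA of 3 LCCTam and 3 SUM44 samples was read on Affymetrix arrays of 22283 probe sets. The authors deposited log2 values from RMA, as the submitters' processing notes name it, which subtracts background, summarises probes and can compress differences of dim genes. The arrays' distributions are not identical as deposited (75th percentiles 7.50 to 7.78). The RMA version and any joint processing were not given in the sources used here. No detection calls were used, and the number of arrays limits the precision. Scan dates were not used here, so array batch and line cannot be told apart.

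Beside 68 controls, the platform annotation gave 1 symbol for 19065 probe sets, which were named, several for 1043, which were not, and did not list 2107. Symbols, chromosomes and gene order came from RefSeq's gene table (GRCh38.p14), which held 19053 of those named. The array files name no build, so that table gave order only, and printed coordinates are those of its promoter windows. The probe set with the highest mean stood for each gene. Groups follow the line given in each title, and replicate numbers the passage. Differences are LCCTam minus SUM44, fitted over all genes with limma 3.58.1 in R 4.3.3 and adjusted by the Benjamini-Hochberg method, and passing means an adjusted p under 0.05. The fit was tested on simulated data with independent noise for each gene. It recovered 24% of differences of 0.5 on the log2 scale, 76% of 1 and 98% of 2, and 6 of its 155 calls were false (3.87%). The simulation held no difference of a whole array, so it does not cover that of LCCTam replicate 3.

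The 10 genes and all lists were chosen with earlier results of these data known. Named genes followed a rule: the 10 genes, ESRRG and ESR1, the nearest measured gene on each side, up to 5 chromosome 4 genes each way, up to 3 passing genes per list (or the largest difference), and the 5 nearest profiles. Others were named after their values were seen.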

Additional observations from a re-analysis of the deposited data

How the results depend on the processing

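No paired analysis was possible because the lines share no passage number. The median difference of the 10 genes was -1.58 with the mean of all probe sets, and with 1 array left out it lay between -1.94 and -1.72. Without the probe sets with the suffixes _x_at and _s_at, 448 genes fell and 150 rose in all, 48 fell among the other chromosome 4 genes and 36 among those above the median level. In that setting 10 neighbours fell and 1 rose, 1 list gene rose, and RAPGEF2, ALB and ITGB4 turned to 0.0492, 0.0260 and 0.28. With quantile normalization 505 genes rose in all and 7 in the lists. With the filter on low values 0 other chromosome 4 genes rose and their median was -0.49, and with an intensity trend 7 rose. With array weights 1944 genes fell and 1900 rose, so that the share lower was near even. On chromosome 4 159 fell and 23 rose, 104 fell above the median level, 35 neighbours fell and 2 rose, and in the lists 50 fell and 36 rose. Among 10 neighbours on each side 33 of 139 fell and 2 rose. The cause of these changes was not tested. With 1 array left out, 191 to 894 genes fell and 68 to 633 rose in all. Among the other chromosome 4 genes 21 to 91 fell and 2 to 8 rose, with medians between -0.11 and -0.08, and 14 to 66 fell above the median level. Of the neighbours 6 to 22 fell, and of the list genes 9 to 35 fell and 1 to 9 rose. Of the 484 values of 42 named passing genes under the alternatives, 393 kept their direction and call, 88 lost the call and 3 turned. Of 115 values of the 10 genes 110 moved by less than 1 SD, 5 by more and 0 turned. Not every gene had a value in every setting. Without the suffixed probe sets 7 of the 10 were measured, and NPY1R, LAP3 and PALLD could not be read. With the filter on low values 8 were measured, and CLGN and ANXA3 were left out. The 5 values that moved by more than 1 SD were TBC1D9 at -1.56, PDLIM3 at -1.31, PDS5A at -1.05 and SCARB2 at -1.02 with the mean of all probe sets. The fifth was PDLIM3 at -0.36 without the suffixed probe sets. The groups by promoter GC and the split at the median level were chosen after seeing the data.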
